A study of Mus musculus with 2 samples.

Results

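The 45 genes described here are interferon-stimulated genes of the mouse, chosen by name from what is known of the interferon response and grouped by the role of their products. Their expression was compared between 1 heart sample of the transgenic B6.Cg-Tg (CAG-WRN*K577M) line 5025Wcl/Mmmh and 1 control heart sample of C57BL6 background. WRN is a RecQ-family DNA helicase whose loss causes the premature ageing disease Werner syndrome. The transgene encodes the form WRN-K577M under the CAG promoter, which is active in most tissues and not restricted to heart muscle. Both samples share the C57BL6 background, and age, sex, any pooling of hearts and the meaning of the letters ND in both sample titles are not given in the sources used here. Total RNA of each sample went onto its own 1-colour Agilent array, with Cy3 as the dye. A gene's probes were found through their RefSeq transcripts, and its level is that of its brightest probe that the scanner software called well above background on both arrays. By this rule 42 of the 45 genes were measured, out of 13999 measured genes among 21368 named genes with a probe. Oas3 had a probe that was not well above background on either array, and no probe was named Mx1 or Mx2, which RefSeq lists as transcribed pseudogenes in the C57BL/6J assembly GRCm38.p6.

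Interferons are secreted when a cell senses foreign or misplaced nucleic acid. Type I interferons bind a receptor whose Janus kinases phosphorylate STAT proteins, and these join IRF9 to form a complex that binds the interferon-stimulated response element (ISRE) in target promoters. Interferon gamma acts through STAT dimers that bind gamma-activated sites (GAS). The products of the target genes detect viral RNA, block its translation or degrade it, and restrain the signal. Cardiac myocytes, fibroblasts, endothelial cells and resident macrophages can all respond, and many of these genes have a basal level in uninfected heart.

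The ISRE is what many of these genes share in sequence, so stretches of promoter that hold it are shown for members that lay on either side of the comparison, with 2 members that hold only the GAS-like letters. The RefSeq promoter table of GRCm38.p6 held 32 of the 45 genes, and the 250 bases before each start were searched on both strands. The core of the ISRE (GAAA, any 2 bases, then GAAA) lies in the promoter of 14 of these 32 members (43.8%), against 3.46% of the 27025 genes in the table. TTCNNNGAA, the core of a GAS, lies in 9 of 32 (28.1%), against 8.13% of genes. Both were found in 4 members, neither in 13, and the motifs overlap each other in 1 member, Bst2. Capitals mark the matched letters, and a match to the other strand reads TTTC, any 2 bases, then TTTC. Each stretch is 70 bases, on the strand of its gene.
Isg15 at chr4:156200851-156200920, minus strand: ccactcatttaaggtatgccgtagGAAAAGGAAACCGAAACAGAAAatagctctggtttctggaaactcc
Ifit1 at chr19:34640764-34640833, plus strand: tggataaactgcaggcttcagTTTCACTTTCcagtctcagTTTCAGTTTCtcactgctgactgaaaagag
Ifit3 at chr19:34583360-34583429, plus strand: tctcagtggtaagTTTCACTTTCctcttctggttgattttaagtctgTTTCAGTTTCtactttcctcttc
Igtp at chr11:58199486-58199555, plus strand: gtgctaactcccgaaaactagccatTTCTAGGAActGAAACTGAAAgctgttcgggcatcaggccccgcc
Irgm2 at chr11:58214877-58214946, plus strand: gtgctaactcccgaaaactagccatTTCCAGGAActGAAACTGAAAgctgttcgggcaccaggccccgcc
Rsad2 at chr12:26456533-26456602, minus strand: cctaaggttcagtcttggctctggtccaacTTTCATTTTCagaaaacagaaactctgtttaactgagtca
Isg20 at chr7:78913320-78913389, plus strand: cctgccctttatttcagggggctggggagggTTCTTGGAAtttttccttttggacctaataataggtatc
Irf1 at chr11:53769893-53769962, plus strand: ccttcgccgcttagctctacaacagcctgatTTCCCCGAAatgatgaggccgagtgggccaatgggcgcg
Isg15 holds 3 overlapping ISRE cores, Ifit1 and Ifit3 hold 2 each, and Rsad2 holds 1. The windows of the neighbouring genes Igtp and Irgm2 are identical at 68 of 70 bases and hold 1 core of each kind in the same arrangement. Isg20 and Irf1 hold a single TTCNNNGAA and no ISRE core. A match describes letters in this window, not a bound site, and the absence of a match says nothing of the factors.

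A level is the log2 of a probe's signal over the 75th percentile of its array, and log2 ratios were taken as WRN-K577M minus control, so positive ones mean a higher level in WRN-K577M. The 75th percentile of the signal was 210 on the WRN-K577M array and 256 on the control array, and 52.9% and 55.2% of the 55680 probes were well above background. No spot was saturated. With 1 array per group there is no replicate and no test between genotypes, and any other difference between the 2 samples cannot be told apart from genotype. As a guide to measurement error only, the error that the scanner software assigns gave members' log2 ratios an error of 0.20 to 0.23, and log2 ratios of spots of the same probe had an SD of 0.12 over 223 probes printed at least 9 times. The label of the tissue was met by its markers: all 9 ventricular cardiomyocyte genes looked for, such as Myh6 (9.70 in WRN-K577M and 9.52 in control), were well above background on both arrays. Of these 9, 8 lay above 0, with a median log2 ratio of 0.15, and Irx4 lay below (-0.62). Their summed signal was 5039 times the 75th percentile in WRN-K577M and 4444 times in control. The samples also differed in transcripts of other tissue. Of 10 lung epithelial markers 7 were well above background in the control heart alone and 2 in both hearts. Summed signals, here and below, cover only genes measured on both arrays. For these 2 the sum was 10.6 times the 75th percentile in WRN-K577M and 68.6 times in control. Without Scgb1a1 it was 10.3 in WRN-K577M and 14.3 in control, and the other 7 do not enter it. Sftpc, a surfactant protein gene, was at least 1336-fold lower in WRN-K577M. All 4 measured erythroid markers were at least 2-fold lower in WRN-K577M (summed signal 192 in WRN-K577M and 820 in control), Alas2 having a log2 ratio of -2.97. Of 5 measured neutrophil markers 3 were lower, S100a8 and S100a9 having -4.98 each, and another 4 were well above background in control alone. The neutrophil sum was 217 in WRN-K577M and 226 in control, nearly all from Csf3r, and 3.36 in WRN-K577M and 41.9 in control without it. The part of such tissue or blood in the values of the members was not tested. Levels of different probes are not comparable with each other, so genes are described by their ratio.

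The interferon-stimulated genes differed little between the hearts. None was at least 2-fold higher in the WRN-K577M heart, where 1.93% of all measured genes were. This count rests on the brightest probe of each gene, and with probes averaged Gbp6 (1.22) was at least 2-fold higher. Of the 42, Isg20 and Ifi27l2a were at least 2-fold lower (2 genes, 4.76%, against 3.46% of all genes). At 1.5-fold, 2 members were higher, Ifit2 and Gbp6 (4.76%, against 6.75%), and 3 were lower, Rsad2 besides the other two (7.14%, against 9.16%). These shares lie near those of all genes. A log2 ratio beyond 2 software errors was seen for 7 higher members (16.7%, against 11.3%) and the same 3 lower ones (7.14%, against 13.6%). The 7 were Ifit2, Gbp6, Iigp1, Ifit1, Oasl1, Irf7 and Trim25. Of the 42 members, 28 lay above 0 (66.7%, against 52.4% of all genes), and 14 lay below (33.3%, against 47.6%). Their median log2 ratio was 0.15 with quartiles of -0.15 and 0.30, beside a median of 0.020 with quartiles of -0.22 and 0.24 for all measured genes. The members ranged from -1.22 to 0.93.

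**Figure D1:**
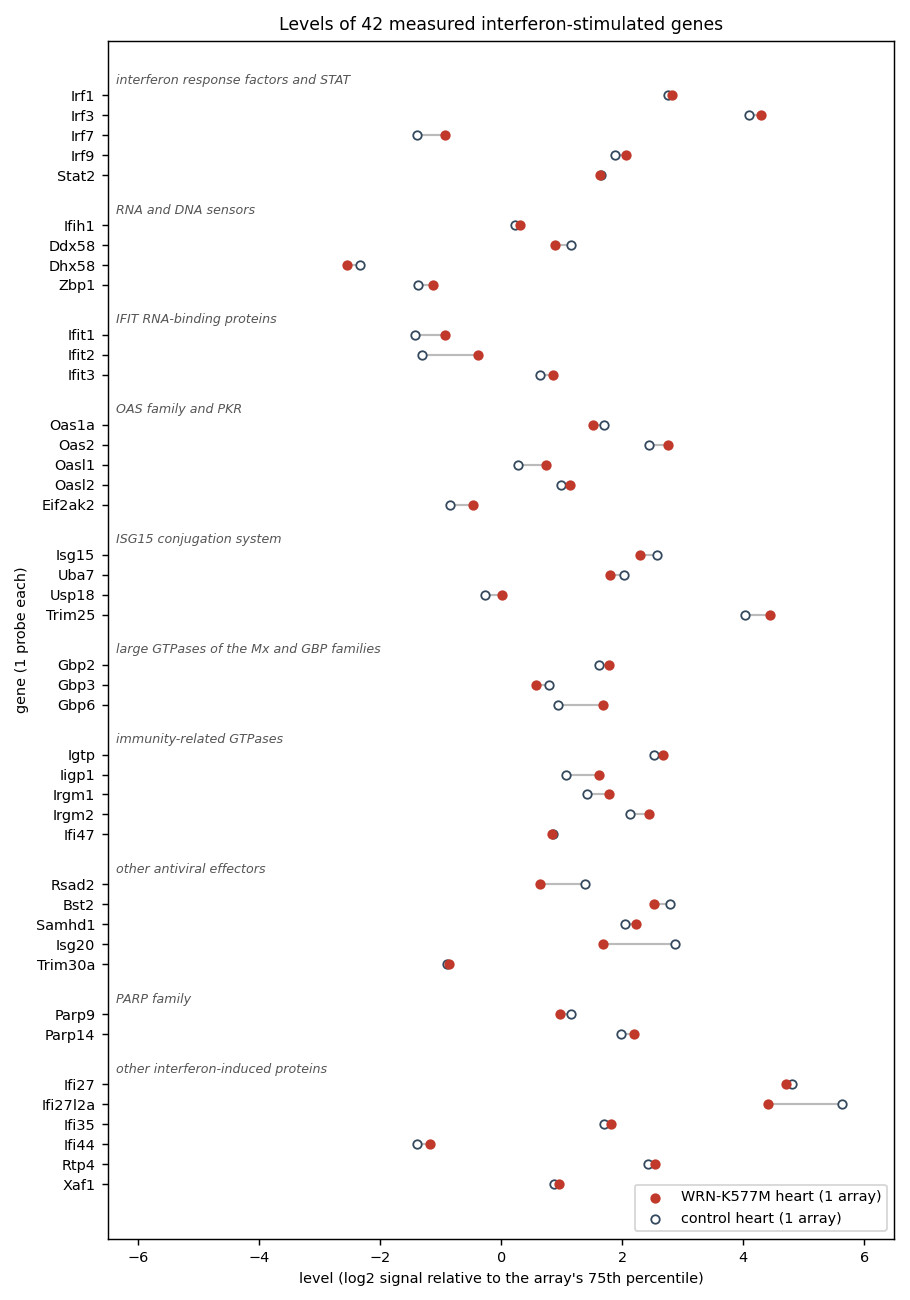
Level of each of the 42 measured interferon-stimulated genes (x axis, log2 of the signal over its array's 75th percentile) in the WRN-K577M heart (filled) and the control heart (open), 1 array each, grouped by role. For most genes the symbols lie close together, and the widest gaps are those of Ifit2 and Gbp6, filled symbol to the right, and of Rsad2, Isg20 and Ifi27l2a, filled symbol to the left; positions of different genes are not comparable.

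Among the transcription factors of the pathway, 4 of 5 members lay above 0 and none differed by 1.5-fold. Irf7, the factor that amplifies type I interferon production and is itself induced by interferon, had a level of -0.93 in WRN-K577M and -1.39 in control, a log2 ratio of 0.45 (1.37-fold). Irf3, which is present before infection and starts the interferon response, had levels of 4.30 in WRN-K577M and 4.09 in control (0.21). Irf9, the DNA-binding partner of the STAT proteins, had levels of 2.06 in WRN-K577M and 1.88 in control (0.18). Irf7 thus lay beyond 2 software errors, and Irf3 and Irf9 lay within them. Stat2 was near equal, with 1.63 in WRN-K577M and 1.64 in control. Irf1, a factor induced mainly by interferon gamma whose promoter holds the GAS-like letters printed above, had levels of 2.83 in WRN-K577M and 2.75 in control (0.077).

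The cytoplasmic sensors of nucleic acid were split, with 2 above and 2 below 0, and all 4 ratios were within 2 software errors. Ifih1, which encodes the long double-stranded RNA sensor MDA5, had levels of 0.31 in WRN-K577M and 0.22 in control. Ddx58, the gene of the 5′-triphosphate RNA sensor RIG-I, had levels of 0.89 in WRN-K577M and 1.15 in control (-0.26), and a dimmer probe of it gave -0.085. For Dhx58, which encodes their relative LGP2, the levels were -2.54 in WRN-K577M and -2.34 in control. Its log2 ratio of -0.21 turned to 0.064 after normexp background correction, so its direction is not settled. Zbp1, a sensor of Z-form nucleic acid that can start necroptosis, had levels of -1.12 in WRN-K577M and -1.38 in control (0.26), and its dimmer probe gave 0.20. The Dhx58 probe had the lowest signal among members that met the background threshold. Oas3, whose probe did not meet it, had values of -6.31 in WRN-K577M and -5.73 in control.

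All 3 IFIT genes had higher levels in the WRN-K577M heart. Of their products, IFIT1 binds viral RNA with foreign 5′ ends and hinders its translation. Ifit2 had a level of -0.38 in WRN-K577M and -1.31 in control, a log2 ratio of 0.93 (1.91-fold), the largest positive value among the members by the brightest probe of each gene. That ratio was 0.71 after normexp. Ifit1 had levels of -0.93 in WRN-K577M and -1.43 in control (0.50, 1.42-fold). Both lay beyond 2 software errors. Ifit3, which binds and stabilises IFIT1 in human cells, had levels of 0.86 in WRN-K577M and 0.65 in control (0.21), within the error.

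Of the OAS family, which senses double-stranded RNA, and PKR, the double-stranded RNA-activated kinase that stops translation, 4 of 5 measured members were above 0. Oasl1, an OAS-like protein without the enzyme activity that in mouse represses translation of Irf7, had levels of 0.75 in WRN-K577M and 0.27 in control (0.48, 1.39-fold). Eif2ak2, the gene of PKR, had levels of -0.47 in WRN-K577M and -0.85 in control (0.38), and Oas2, a 2′-5′ oligoadenylate synthetase, had 2.75 in WRN-K577M and 2.44 in control (0.31). Of these only Oasl1 lay beyond 2 software errors. Oasl2, a second OAS-like gene, had levels of 1.13 in WRN-K577M and 0.99 in control. Oas1a, which makes the second messenger that activates RNase L, lay on the other side, with 1.51 in WRN-K577M and 1.70 in control (-0.19). Its dimmer probe gave -0.18.

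The genes of ISG15 conjugation lay on both sides of 0. Isg15 itself, the ubiquitin-like protein attached to new proteins during the response, had a level of 2.30 in WRN-K577M and 2.58 in control (-0.28), and a dimmer probe gave -0.33. Uba7, its activating enzyme, was also below 0, with 1.80 in WRN-K577M and 2.04 in control (-0.23). Usp18, which removes ISG15 and blocks the type I receptor, had levels of 0.018 in WRN-K577M and -0.27 in control (0.29). These values all lay within 2 software errors. Trim25, the ubiquitin ligase that helps to activate RIG-I, had levels of 4.44 in WRN-K577M and 4.03 in control (0.41, 1.33-fold), just beyond 2 software errors.

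The guanylate-binding proteins, interferon gamma-induced large GTPases that attack the membranes around pathogens, had 2 of 3 members above 0. Gbp6 had levels of 1.67 in WRN-K577M and 0.93 in control, a log2 ratio of 0.74 (1.67-fold). Its other probe gave 2.07 in WRN-K577M and 0.37 in control, a log2 ratio of 1.70, so the probes of this gene differ by 0.96. Both put the level higher in WRN-K577M, and the size of the difference depends on the probe. Gbp2 had levels of 1.77 in WRN-K577M and 1.61 in control (0.16). Gbp3 had 0.57 in WRN-K577M and 0.79 in control (-0.22). Neither ratio exceeded 2 software errors.

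Of the 5 immunity-related GTPases, which act in mouse against vacuolar pathogens, 4 were above 0. Iigp1, an effector that is loaded onto pathogen vacuoles, had levels of 1.62 in WRN-K577M and 1.07 in control (0.54, 1.46-fold), and its dimmer probe gave 0.58. Irgm1, a regulator of the effector GTPases, had levels of 1.78 in WRN-K577M and 1.42 in control (0.36), and a dimmer probe gave 0.11. Irgm2, another regulator, had 2.45 in WRN-K577M and 2.13 in control (0.32). Of these genes only Iigp1 lay beyond 2 software errors. Igtp, also called Irgm3, had levels of 2.68 in WRN-K577M and 2.53 in control (0.15). Ifi47 was near equal, with 0.85 in WRN-K577M and 0.86 in control.

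The 3 members at least 1.5-fold lower in WRN-K577M were Ifi27l2a, Isg20 and Rsad2. Ifi27l2a, a gene of the ISG12 family of small hydrophobic proteins, had a level of 4.41 in WRN-K577M and 5.64 in control, a log2 ratio of -1.22 (2.34-fold lower). Its relative Ifi27 was near equal, with 4.71 in WRN-K577M and 4.81 in control (-0.095). Isg20, a 3′-5′ exonuclease that acts on single-stranded RNA, had levels of 1.68 in WRN-K577M and 2.87 in control, a log2 ratio of -1.19 (2.28-fold lower). Its dimmer probe had 0.23 in WRN-K577M and 1.47 in control (-1.25), so 2 separate probes gave the same size. Rsad2, which encodes viperin, an enzyme that makes a chain-terminating nucleotide, had levels of 0.63 in WRN-K577M and 1.38 in control (-0.74, 1.67-fold lower). These are bulk samples, in which fewer cells of a type and less RNA per cell cannot be told apart.

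The other effectors lay within 2 software errors. Bst2, the tetherin that holds budding virions on the cell surface, had levels of 2.52 in WRN-K577M and 2.78 in control (-0.26). Samhd1, which depletes nucleotides needed for reverse transcription, had levels of 2.23 in WRN-K577M and 2.05 in control (0.18), with -0.035 for its dimmer probe. Trim30a, a TRIM-family protein, had levels of -0.86 in WRN-K577M and -0.90 in control. None of these 3 stood apart. Parp9 and Parp14, interferon-induced members of the ADP-ribosyltransferase family, lay on opposite sides. Parp9 had levels of 0.98 in WRN-K577M and 1.15 in control (-0.17), and Parp14 had 2.20 in WRN-K577M and 1.98 in control (0.22). The remaining 4 interferon-induced genes were all slightly above 0. Ifi44 had -1.17 in WRN-K577M and -1.39 in control (0.22), and Ifi35 had 1.81 in WRN-K577M and 1.69 in control (0.12). Rtp4 had 2.53 in WRN-K577M and 2.42 in control (0.12). Xaf1, a pro-apoptotic antagonist of the caspase inhibitor XIAP, had 0.96 in WRN-K577M and 0.87 in control, while its dimmer probe gave -0.21.

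**Figure D2:**
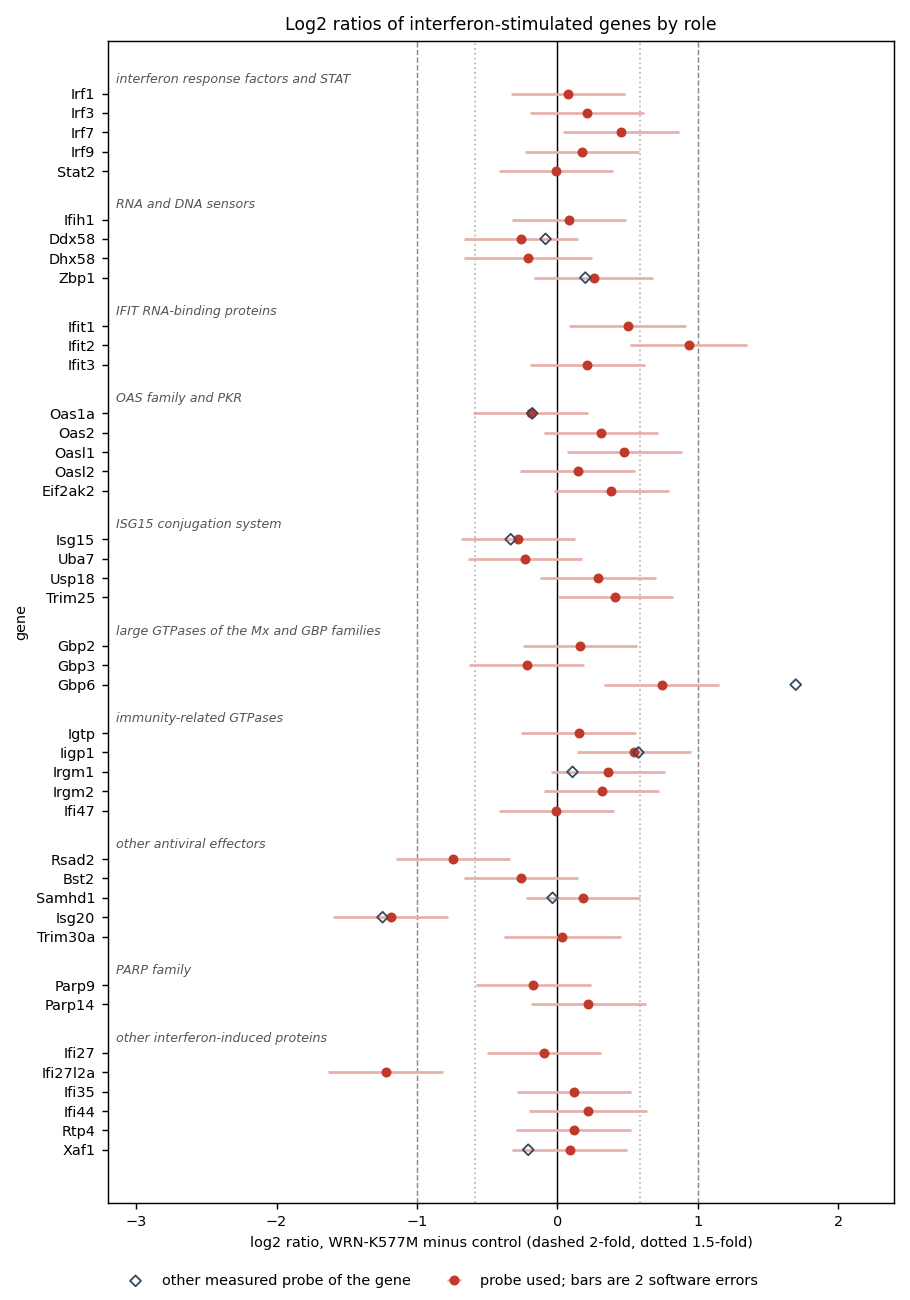
Log2 ratio of each measured interferon-stimulated gene (x axis, WRN-K577M minus control), grouped by role, for the probe used (filled circle, bars of 2 software errors on either side, which cover measurement only) and any other measured probe of the gene (open diamond). Ifit2 and Gbp6 lie furthest right and Rsad2, Isg20 and Ifi27l2a furthest left; the second Gbp6 probe, at 1.70, lies far from the first, at 0.74.

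Of the 10 members with 2 measured probes, 8 had both on the same side of 0. The exceptions were Samhd1 and Xaf1, whose ratios were small. The probes differed by 0.30 or less for 9 of the 10, and by 0.96 for Gbp6. Of the 42 members, 38 lay on the same side of 0 under all 9 other ways of processing the arrays, and Dhx58, Ifi47, Trim30a and Xaf1 did not. The changed filters on dim probes left the ratio of each of the 42 as it was. Other scaling percentiles and the deposited matrix shifted all members by 1 small constant each. Only normexp, quantile normalization, cyclic loess and averaged probes could move members relative to each other. Over all 9 settings Isg20 ran from -1.24 to -1.14, Rsad2 from -0.79 to -0.67 and Gbp6 from 0.69 to 1.22.

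**Figure D3:**
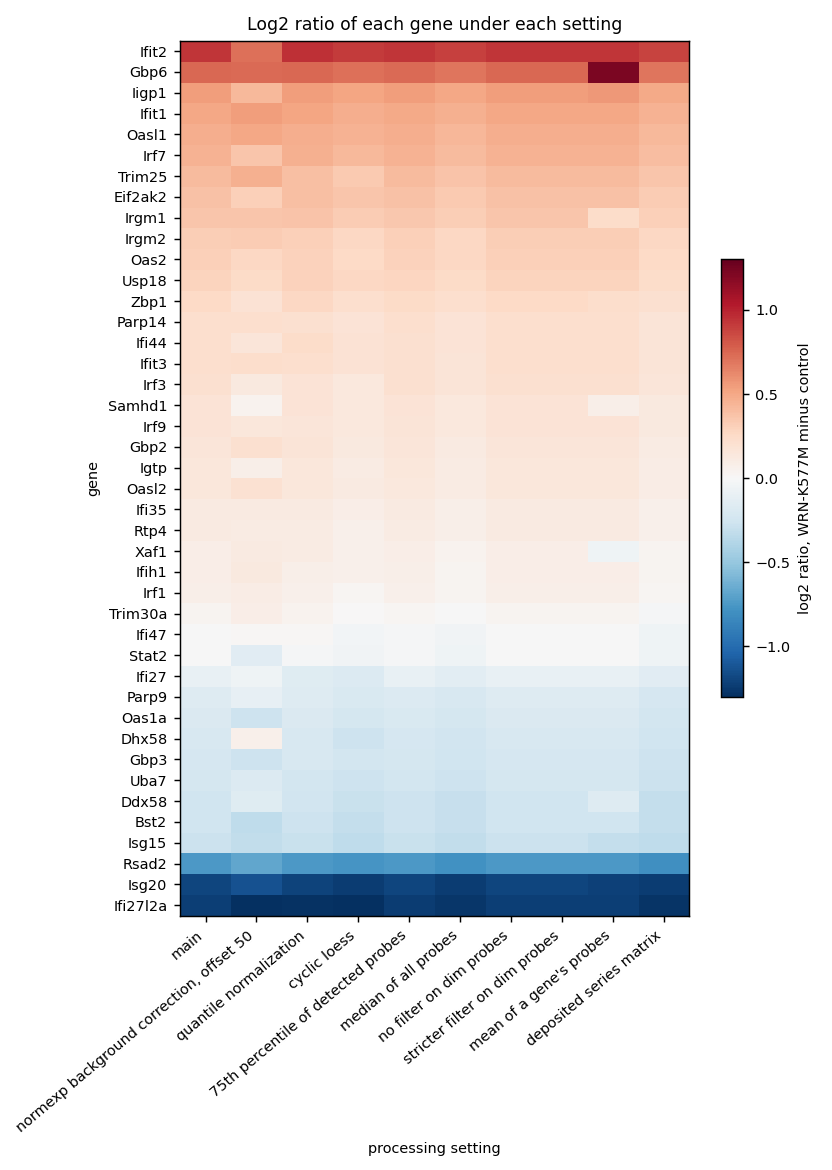
Log2 ratio (colour, WRN-K577M minus control, red higher and blue lower) of each measured interferon-stimulated gene (rows) under the main setting and 9 alternatives (columns). Gbp6 is darker with the mean of probes (1.22), Ifit2 is paler after normexp (0.71), and Dhx58 turns from blue to red there (0.064).

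Several members sit beside relatives in gene clusters, placed here by the RefSeq table of GRCm38.p6, and the values below are not listed in chromosomal order. In the Ifit cluster of chromosome 19 all 6 genes were above 0, with a median log2 ratio of 0.45 and a range of 0.21 to 0.93. They comprise Ifit1, Ifit2 and Ifit3 and the relatives Ifit1bl1 (0.47), Ifit3b (0.38) and Ifit1bl2 (0.44). Of these, Ifit3 and Ifit3b lay within 2 software errors. Of all measured genes, 52.4% were above 0, a share to set beside each cluster count here. In the immunity-related GTPase genes of chromosome 11, 5 of 6 were above 0, with a median of 0.34, the non-members Tgtp1 and Tgtp2 having 0.37 each. Both ratios lay within 2 software errors. Tgtp1 was dim, with levels of -3.27 in WRN-K577M and -3.64 in control and a software error of 0.31. Gm4951, which lies near Iigp1 on chromosome 18, had 0.57. The Gbp genes were mixed. On chromosome 5, Gbp10 (0.74) had the same ratio as its neighbour Gbp6, while Gbp4 (-0.74) and Gbp9 (-0.36) lay below 0, and on chromosome 3 the ratios of 4 genes ran from -0.22 to 0.31. Of the Oas genes on chromosome 5, 4 of 5 measured ones were above 0, from Oas1a (-0.19) to Oas1c (0.65). Oas1c was dim, with levels of -1.97 in WRN-K577M and -2.63 in control. Genes of a cluster can be near-identical in sequence, and whether a probe also binds the message of a neighbour was not tested.

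**Figure D4:**
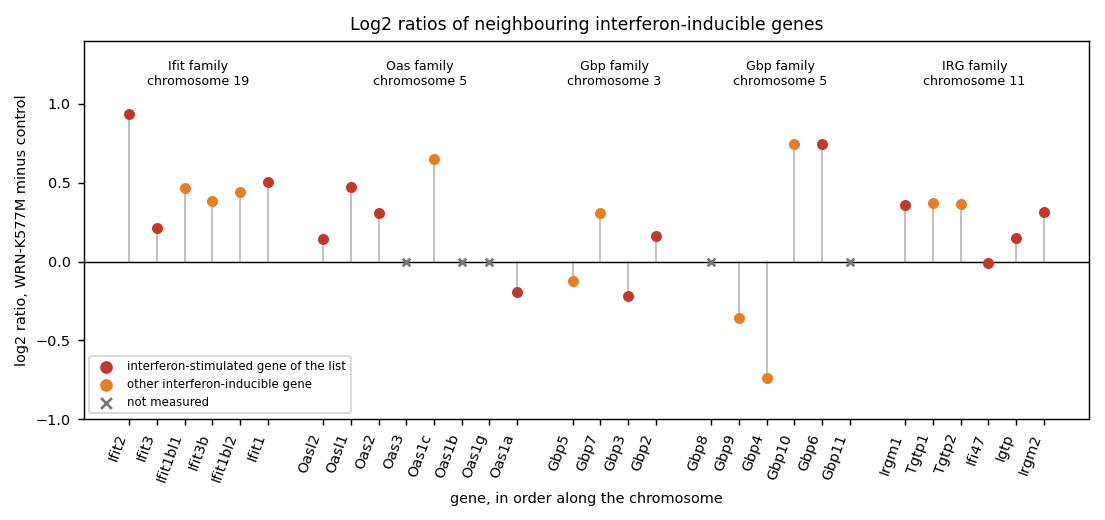
Log2 ratio (y axis, WRN-K577M minus control) of interferon-inducible genes in their order along 5 chromosomal blocks; red points are the interferon-stimulated genes of the list, orange points their relatives, and crosses at 0 genes that were not measured. All 6 Ifit genes lie above 0, whereas the Gbp genes of chromosome 5 run from -0.74 to 0.74.

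Members with either promoter motif lay on both sides of 0. Of the 13 measured members with an ISRE core in the window, 7 were above 0, with a median of 0.036 and a range of -0.74 (Rsad2) to 0.50 (Ifit1). Of the 18 measured members whose window did not match, 14 were above 0, with a median of 0.16 and a range of -1.19 (Isg20) to 0.93 (Ifit2). Thus Isg15, with its 3 cores, and Rsad2 lay below 0, and Ifit1 and Ifit3, with 2 each, lay above. Of the 9 members with TTCNNNGAA, all measured, 6 were above 0 with a median of 0.15, and of the 22 measured members without it 15 were above 0 with a median of 0.13. The near-identical Igtp and Irgm2 windows belonged to genes with ratios of 0.15 and 0.32. These are counts over a few genes and a description.

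Upstream of the members, few interferon genes were measured. Of 21 interferon genes looked for, 6 were measured, 10 stayed at background on both arrays, Ifnb1 and Ifng among them, and 5 had no named probe. Those measured were the alpha interferons Ifna1 (0.18), Ifna5 (-0.10), Ifna12 (0.26) and Ifna14 (0.084), Ifnab (-0.30) and the lambda interferon Ifnl3 (0.24). Ifnl3 had a level of -1.48 in WRN-K577M and -1.72 in control. The other 5 lay between -3.96 and -3.25 in WRN-K577M and between -3.81 and -3.51 in control, and the lowest level of any probe well above background was -4.42 in WRN-K577M and -4.73 in control. No measured interferon gene differed by 1.5-fold, and the alpha interferons are near-identical in sequence, so their probes may share targets.

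All 11 receptor, kinase and STAT genes were measured, 6 of them above 0, with a median of 0.012. Both chains of the type I receptor lay below 0, within 2 software errors. Ifnar1 had a level of 0.71 in WRN-K577M and 1.02 in control (-0.31), and Ifnar2 had 2.47 in WRN-K577M and 2.59 in control (-0.12). For the interferon gamma receptor, Ifngr1 was near equal (3.42 in WRN-K577M and 3.44 in control). Ifngr2 had 4.12 in WRN-K577M and 4.51 in control (-0.39), also within 2 software errors. The lambda receptor chain Ifnlr1 had the largest ratio of the list, with 0.62 in WRN-K577M and -0.32 in control (0.94, 1.92-fold). Its partner Il10rb was near equal, with 2.57 in WRN-K577M and 2.56 in control. Among the Janus kinases, Jak1 had 3.43 in WRN-K577M and 2.997 in control (0.43). Jak2 had 1.78 in WRN-K577M and 1.55 in control (0.23), and Tyk2 had -0.38 in WRN-K577M and -0.14 in control (-0.25). Of the kinases only Jak1 lay beyond 2 software errors. Stat3, which carries interleukin-6 family signals and can restrain interferon responses, had 5.43 in WRN-K577M and 4.62 in control (0.81, 1.75-fold), and its dimmer probe gave 0.66.

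Of the 17 measured genes that restrain interferon signalling, 8 were above 0 and the median was -0.013. Tnfaip3, the ubiquitin-editing enzyme A20, had the largest ratio, with -0.97 in WRN-K577M and 0.20 in control (-1.17, 2.25-fold lower). Lower too were Rnf125 (-0.81), a ubiquitin ligase that acts on RIG-I, Ptpn6 (-0.75), the phosphatase SHP-1 of blood cells, and Socs1 (-0.57), a feedback inhibitor of Janus kinases. Socs3, a feedback inhibitor in the STAT3 pathway, was higher, with 3.43 in WRN-K577M and 2.76 in control (0.67, 1.59-fold). Of the 16 measured genes of nucleic acid sensing and adaptors, 8 were above 0 and the median was -0.067. The largest ratios were those of Irf5 (-0.61), Traf3 (-0.58), Irf8 (-0.41), Cgas, the cytosolic DNA sensor (0.40), and Zcchc3, its co-sensor (0.39). Irf4, Aim2 and Ikbke were well above background in the control heart only. Their WRN-K577M levels were below that by at least 2.29-fold for Irf4, 1.16-fold for Aim2 and 1.19-fold for Ikbke.

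A further 84 interferon-inducible genes served as a second view of the response, and 71 were measured. Of these 37 were above 0 (52.1%, beside 52.4% of all genes), and the median was 0.033. One was at least 2-fold higher, Apol9b, with -0.33 in WRN-K577M and -1.38 in control (1.06), and 1 was at least 2-fold lower, Slfn5, with -3.45 in WRN-K577M and -2.43 in control (-1.02). The next largest were Ube2l6, the conjugating enzyme for ISG15 (-0.84), Ifi30, a lysosomal thiol reductase of antigen-presenting cells (-0.84), and Gbp10 (0.74). Ube2l6 lay on the same side of 0 as Isg15 and Uba7, its partners in conjugation.

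**Figure D5:**
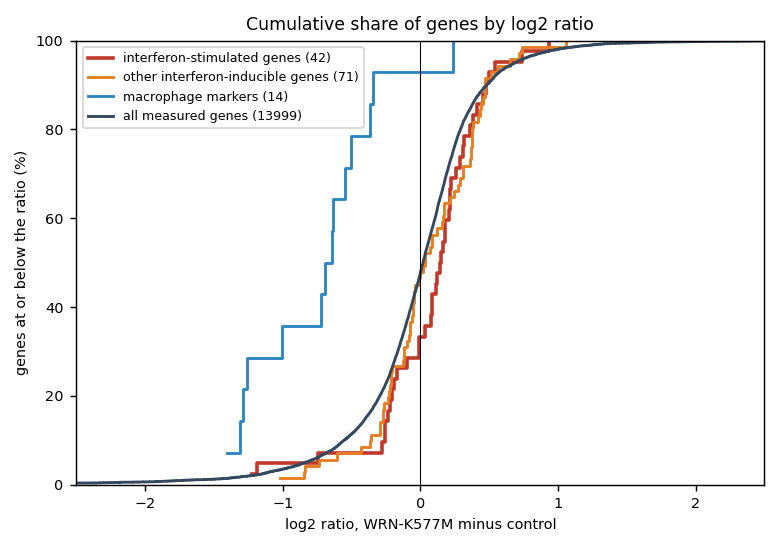
Cumulative share of genes (y axis, percent) by log2 ratio (x axis, WRN-K577M minus control, drawn from -2.5 to 2.5) for the 42 interferon-stimulated genes, 71 other interferon-inducible genes, 14 macrophage markers and all 13999 measured genes. The interferon-stimulated genes have a median of 0.15 and the other interferon-inducible genes one of 0.033, close to that of all genes (0.020), while the macrophage markers lie to the left with a median of -0.67.

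Markers of other cells that express these genes were compared between the hearts, and of the lists below those of macrophages and fibroblasts differed most. Of 14 macrophage markers 13 were below 0 in the WRN-K577M heart, with a median of -0.67, 5 of them at least 2-fold lower, and their summed signal was 101 times the 75th percentile in WRN-K577M and 113 times in control. Without Itgam, which was above 0 (0.24) and gave most of the WRN-K577M sum, it was 34.8 in WRN-K577M and 56.5 in control. Those with the largest ratios were Ccr2 (-1.40), Adgre1 (-1.31) and Cx3cr1 (-1.29). Of 10 fibroblast markers 9 were below 0 (median -1.16, summed signal 221 in WRN-K577M and 284 in control, or 32.0 in WRN-K577M and 87.1 in control without Dcn). Of these 10, 6 were at least 2-fold lower, with the largest ratios for Col3a1 (-2.29), Mfap4 (-2.04) and Col1a1 (-1.73). Of 12 endothelial markers 6 were below 0, with a median of -0.0055. At least 1.5-fold lower were 2 of them, Cldn5 (-0.99) and Vwf (-0.59), and the largest positive ratio was that of Ly6c1 (0.53). Their summed signal over all 12 was 311 in WRN-K577M and 290 in control. Without Ly6c1 it was 161 in WRN-K577M and 186 in control. Among 10 T and NK cell markers 5 were measured and 4 of these were below 0, with a median of -0.33. The largest ratios were those of Lck (-1.03), Cd2 (-0.73) and Cd3e (-0.33). The summed signal was 6.56 in WRN-K577M and 6.83 in control, or 3.27 in WRN-K577M and 3.53 in control without Nkg7. Cd3d and Cd3g were well above background in control alone, Cd3d being at least 1.43-fold lower in WRN-K577M, and Cd8a, Ncr1 and Klrb1c were at background on both arrays. Of 7 plasmacytoid dendritic cell markers, the cells that make most type I interferon in blood, 3 were measured, Siglech at 0.081, Pacsin1 at -0.024 and Ly6d at -0.65. Their summed signal was 138 in WRN-K577M and 131 in control, or 13.0 in WRN-K577M and 13.3 in control without Siglech. Of 2 Siglech probes only 1 was measured, at levels of 6.96 in WRN-K577M and 6.88 in control. Whether its signal comes from these cells was not tested. Ccr9 and Spib were well above background in control alone, and Klk1 and Runx2 were at background on both. The part of these cells, and of the blood and lung transcripts named above, in the lower levels of Isg20, Ifi27l2a and Rsad2, and in the ratios of the other members, was not tested.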

How the data were processed

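Heart RNA of 2 samples, 1 WRN-K577M and 1 control, was measured on 1-colour Agilent arrays, 1 each, and grouped by the genotype in the labels. The deposited intensity values, a processed signal (background-subtracted and detrended) and a raw median signal, and the spot flags (outlier, saturated, well above background) come from Agilent Feature Extraction 11.5.1.1 as run by the authors, according to the submitters' processing notes and per the file headers. The matrix deposited by the authors holds the same processed intensity times 4.86 for WRN-K577M and 4.12 for control. The sources used here do not give the origin of these factors.

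Control spots and 257 outlier spots were left out, and repeated spots were averaged to 1 value per probe. Its log2 signal minus the array's 75th percentile is the level. Transcripts were named through RefSeq (GRCm38.p6), which names 28330 probes and leaves 27350 unnamed here. The array design is annotated on mm9, so the sole coordinates given are RefSeq's own, for promoters. A gene is its brightest probe well above background on both arrays. No test was made, and folds of 2 and 1.5 were counted beside all measured genes. A gene well above background on 1 array only has a bound, its level there minus a floor on the other array, which is its own value or the lowest level of any probe that is well above background, whichever is higher. The members, lists and rules were chosen with earlier results of these data known. The text names every member, all interferon, receptor, kinase and STAT genes measured except 1 that is not reported here, and up to 5 genes with the largest absolute ratio of each other pathway list and up to 3 of each marker list. Myh6, the genes of clusters and those not detected or in control only were named beyond that rule after their values were seen. The cardiomyocyte, neutrophil, erythroid and lung lists are named in part. Where a sum is given without it, the largest contributor is named as well. Counting was tested on simulated data. Python 3.11.15, numpy 2.4.6, pandas 2.3.3, R 4.3.3, limma 3.58.1 and matplotlib 3.10.9 were used. The alternatives were quantile normalization, cyclic loess, normexp (offset 50), other scaling percentiles, no or a stricter filter on dim probes, averaging the probes of a gene, and the deposited matrix.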

Additional observations from a re-analysis of the deposited data

How the results depend on the processing

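Under the 9 alternatives 2 members were higher and 3 lower by at least 1.5-fold each time. These are 4.76% and 7.14% of 42 members, while 43 members entered without a filter. The share of all genes for higher ran from 3.67% after normexp to 11.95% without a filter. For lower it ran from 4.84% after normexp to 10.71% without a filter. After normexp the members' shares thus lay above those of all genes. Further, 2 members were at least 2-fold lower each time. Several alternatives keep or shift the ratios of all 42 members alike, as described above, so they could change these counts little. Averaging a gene's probes put 1 member at least 2-fold higher in WRN-K577M, against 0 otherwise: Gbp6, at 1.22, because its second probe enters. The median log2 ratio of the members ran from 0.097 with the deposited matrix to 0.15, and between 27 and 30 members lay above 0, beside 46.0% of all genes after cyclic loess and up to 60.2% without a filter. In that last setting 22 of 43 members lay above the median of all genes, against 28 of 42 in the main setting. Relative to the median of all measured genes, the members' median was 0.13 higher in the main setting, 0.073 after normexp and 0.14 with quantile normalization or cyclic loess. Without a filter on dim probes the gap was 0.023, since the median of all genes was then 0.12. Normexp moved Ifit2 to 0.71, Ifi27l2a to -1.38, Iigp1 to 0.42, Samhd1 to 0.050 and Stat2 to -0.14, and averaged probes put Irgm1 at 0.23. Of 42 members, 4 changed sign under some alternative, Ifi47 reaching 0.018, Trim30a -0.015, Xaf1 -0.060 and Dhx58 0.064. With 1 array per genotype nothing here measures the spread between animals, and leaving out an array is not possible. Dim genes such as Dhx58 and the alpha interferons lie near background, where the signal limits what a ratio can show. No paired analysis was possible because each group has 1 array.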

Other observations

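Genes of the interferon-inducible PYHIN family, which holds sensors of DNA, form a cluster on chromosome 1. Of 9 genes looked for, 7 were measured and 4 of these lay above 0, beside 52.4% of all measured genes. Their median log2 ratio was 0.31. The higher ones were Ifi207 (0.52), Ifi205 (0.37), Ifi208 (0.36) and Ifi204 (0.31), and the lower ones Ifi209 (-0.21), Mndal (-0.047) and Ifi203 (-0.046). Only Ifi207 lay beyond 2 software errors. Ifi209 was dim, with levels of -3.83 in WRN-K577M and -3.62 in control and a software error of 0.31. Ifi207 had a level of 2.03 in WRN-K577M and 1.52 in control. These genes are close in sequence, and whether their probes share targets was not tested.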
